A study of Mus musculus with 6 samples.

Results

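The simple epithelial keratins Krt7, Krt8, Krt18, Krt19, Krt20, Krt23 and Krt80 were followed in the kidneys of diabetic mice with and without atorvastatin. They were chosen by gene symbol, as keratins named for epithelia of a single cell layer and for related epithelia. All 7 of the 7 listed genes had a row among the 17684 genes of the table, which held 32 keratin genes in all, and all 7 were among the 13679 genes tested. A gene was tested when it had at least 10 counts in at least 3 libraries, so a gene detected in a single group could pass. Keratins are the intermediate filament proteins of epithelial cells. A filament is assembled from heterodimers of a basic type II keratin and an acidic type I keratin, so each type depends on partners of the opposite type. In the kidney, Krt8 and Krt18 form the main keratin pair of tubule epithelium, Krt7 and Krt19 are best known from the collecting duct and related duct epithelia, and keratins are known to increase in injured tubules.

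The study asked how long-term statin treatment acts on the diabetic kidney. RNA was sequenced from the kidneys of db/db mice, which lack a working leptin receptor and become obese and diabetic, in 3 Db and 3 Db + Ato10 libraries. All mice were 50 weeks old db/db animals of the strain labelled C57 BLKS/L. Mice of the Db group received normal saline for 40 weeks, and mice of the Db + Ato10 group received atorvastatin, an inhibitor of cholesterol synthesis, at 10 mg/kg per day for 40 weeks. The treatment field of the labels separates saline from atorvastatin and set the groups used here, while a protocol field describes atorvastatin for all 6 libraries. No mice without the db/db genotype were compared here. The sources used here do not state that each library came from a different mouse, so p-values measure the spread between these libraries.

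Total counts were 13134930, 11381678 and 12426051 for Db replicates 1, 2 and 3, and 14578023, 14667909 and 13133241 for Db + Ato10 replicates 1, 2 and 3. At these depths 3 counts, the upper limit that a count of 0 allows, corresponded to between 0.198 and 0.260 CPM, a limit that covers counting error only. CPM here is the count of a gene scaled to library size after TMM normalization, which sets the libraries on a common scale. A pair of libraries stood apart from their labels or group. Db replicate 1 had 2 counts over 4 Y-linked genes, although the study's methods name male mice only, and the other libraries had between 1419 and 2116. The first principal component (71.1% of the variance) placed Db replicates 1, 2 and 3 at -55.4, -26.9 and -52.0 and Db + Ato10 replicates 1 and 2 at 107 and 46.1. The score of Db + Ato10 replicate 3 was -18.8, closer to the Db libraries than to its own group. The fold changes and calls of the 7 keratins and the ratio of Krt8 to Krt18 are therefore given with all 6 libraries and again without each of these 2. Calls and directions in the other gene lists and DESeq2 calls among transcripts were counted again without each of them as well, an alternative chosen after the data were seen, while summed levels and correlations use all 6. Db + Ato10 replicate 3 was singled out for its closeness to the Db libraries, so calls made without it are not independent support. Markers of kidney tubules were present in every library, with at least 1174 CPM summed over 9 proximal tubule genes.

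Of the 7 keratins, 6 had a higher and 1 a lower fitted level in the Db + Ato10 group. Krt8, Krt18, Krt19 and Krt20 were higher in each Db + Ato10 library than in any Db library, with mean levels 1.81, 2.57, 20.2 and 37.8 times those of the Db group. These 4 of 7 members without overlap stood beside 12.0% of all tested genes that were higher without overlap (1640 of 13679) and 11.3% that were lower without overlap (1540). With edgeR, which called a gene at a fold change over 1.5 and an adjusted p-value under 0.05, 0 of the 7 keratins were called, beside 0% of all tested genes (0 of 13679). The smallest adjusted p-value of any gene was 0.239. At an unadjusted p-value under 0.05 and higher in the Db + Ato10 group, edgeR counted 4 of the 7 keratins and 11.2% of all tested genes (1533 of 13679), and 16.9% of genes had such a p-value in either direction (2314). DESeq2 made more false calls than edgeR on counts simulated with the spread that edgeR estimated, equal in both groups. That result need not hold for these libraries, whose spread was unequal. DESeq2 called 4 of the 7 keratins higher at a fold change over 1.5 and an adjusted p-value under 0.05. This stood beside 5.17% of all tested genes called higher (707 of 13679) and 6.46% called in either direction (884). Krt20 was among the 4 and reached the count filter only with Db + Ato10 libraries included, where it was high, so 1 of the 4 calls was not independent of the filter, and the other 3 were Krt8, Krt18 and Krt19. The median log2 fold change was 0.86 over the 7 keratins and -0.0063 over all tested genes. Because bulk kidney RNA was measured, fewer cells of a type and less RNA per cell cannot be told apart, nor can more cells and more RNA per cell.

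**Figure D1:**
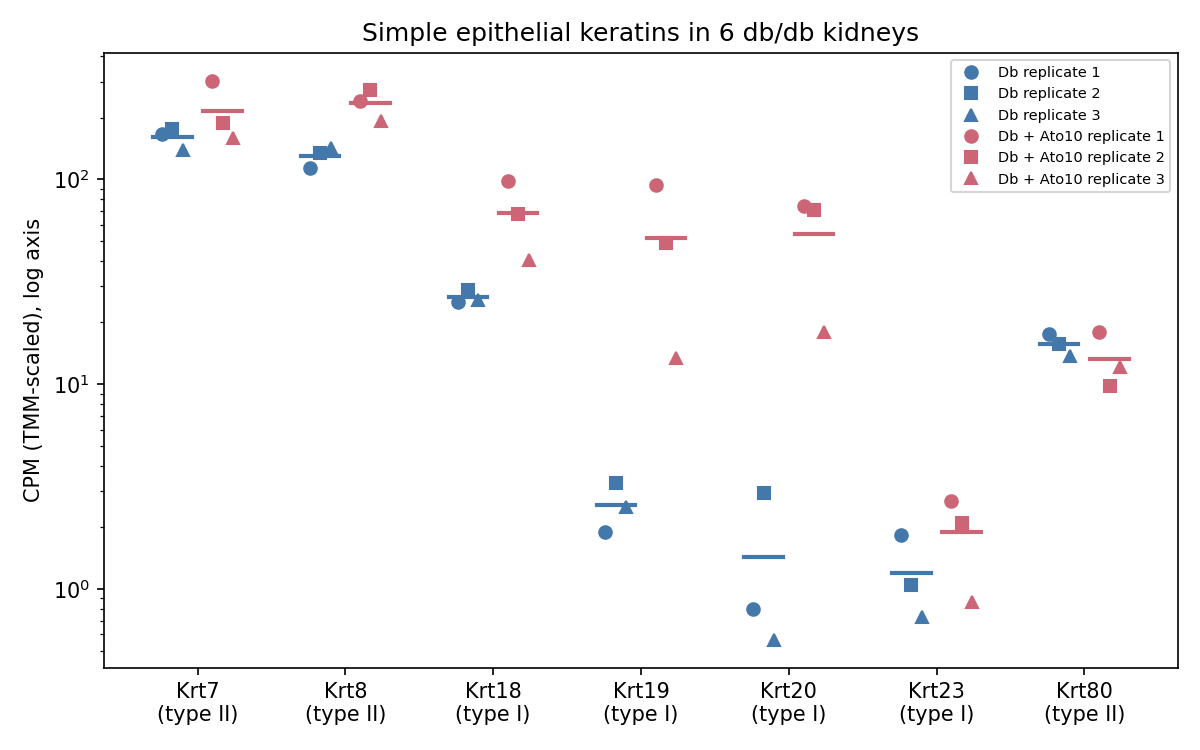
Level of each simple epithelial keratin in CPM (TMM-scaled, log axis) in 3 Db and 3 Db + Ato10 kidney libraries. Each point is 1 library, the point's shape gives the replicate, and the horizontal lines are group means; Krt8, Krt18, Krt19 and Krt20 show no overlap between the groups, with Krt20 means of 1.44 and 54.3 CPM.

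Among the type II keratins, Krt7 (gene 110310), a duct and urothelial keratin, measured 166, 176 and 139 CPM in Db replicates 1, 2 and 3 and 302, 188 and 159 CPM in Db + Ato10 replicates 1, 2 and 3. The groups overlapped, since Db + Ato10 replicate 3 lay below Db replicates 1 and 2, and only Db + Ato10 replicate 1 stood far above the rest. The means were 160 ± 19.0 CPM (Db) and 217 ± 75.7 CPM (Db + Ato10; SD, n = 3 each). The log2 fold change of 0.44 (SE 0.26) did not pass edgeR's quasi-likelihood test (adjusted p = 0.414) or DESeq2 (adjusted p = 0.432). Leaving out Db replicate 1 gave 0.47, leaving out Db + Ato10 replicate 3 gave 0.62, and leaving out Db + Ato10 replicate 1 gave 0.13.

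Krt8 (gene 16691), the type II partner of Krt18 in simple epithelia, measured 113, 134 and 143 CPM in Db replicates 1, 2 and 3 and 242, 273 and 193 CPM in Db + Ato10 replicates 1, 2 and 3. Each Db + Ato10 library lay above each Db library, and the gap between the nearest libraries ran from 143 to 193 CPM. The means were 130 ± 15.3 CPM and 236 ± 40.6 CPM (SD, n = 3 each). The log2 fold change was 0.86 (SE 0.19), with an adjusted p of 0.239 by edgeR and of 0.00286 by DESeq2. When Db replicate 1 was left out, edgeR gave 0.78 (adjusted p = 0.588). When Db + Ato10 replicate 3 was left out, edgeR gave 0.99 and called the gene (adjusted p = 0.0337).

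Krt80 (gene 74127), a type II keratin found in many epithelia, measured 17.6, 15.8 and 13.7 CPM in Db replicates 1, 2 and 3 and 18.0, 9.79 and 12.1 CPM in Db + Ato10 replicates 1, 2 and 3. The groups overlapped, with the highest and the lowest library both in the Db + Ato10 group. It was the member with a lower fitted level after atorvastatin, at a log2 fold change of -0.24 (SE 0.26) that did not pass edgeR (adjusted p = 0.633) or DESeq2 (adjusted p = 0.724). Leaving out Db replicate 1 gave -0.13, and leaving out Db + Ato10 replicate 3 gave -0.17. The lowest value was -0.51, with Db + Ato10 replicate 1 left out, and the highest was -0.037, with Db + Ato10 replicate 2 left out.

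Among the type I keratins, Krt18 (gene 16668), the partner of Krt8, measured 25.3, 28.9 and 25.8 CPM in Db replicates 1, 2 and 3 and 98.1, 67.4 and 40.3 CPM in Db + Ato10 replicates 1, 2 and 3. The Db libraries lay close together, the Db + Ato10 libraries lay far apart, and the groups did not overlap. The means were 26.7 ± 1.93 CPM and 68.6 ± 28.9 CPM (SD, n = 3 each). The log2 fold change was 1.36 (SE 0.31), with an adjusted p of 0.239 by edgeR and of 0.00589 by DESeq2. The edgeR value was 1.34 with Db replicate 1 left out (adjusted p = 0.588). It was 1.64 with Db + Ato10 replicate 3 left out, and Krt18 was then called (adjusted p = 0.0260).

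Krt19 (gene 16669), the smallest keratin, which lacks most of the tail domain of other keratins, measured 1.91, 3.29 and 2.50 CPM in Db replicates 1, 2 and 3 and 93.5, 48.8 and 13.4 CPM in Db + Ato10 replicates 1, 2 and 3. These values rested on 24, 38 and 31 counts in the Db libraries and on 1419, 722 and 170 counts in the Db + Ato10 libraries. The groups did not overlap, and the Db + Ato10 libraries lay 36.4, 19.0 and 5.21 times above the Db mean. The means were 2.57 ± 0.696 CPM and 51.9 ± 40.1 CPM (SD, n = 3 each). The log2 fold change was 4.34 (SE 0.74), with an adjusted p of 0.239 by edgeR and of 3.67e-08 by DESeq2. When Db replicate 1 was left out, edgeR gave 4.17 (adjusted p = 0.588). When Db + Ato10 replicate 3 was left out, edgeR gave 4.80 and called the gene (adjusted p = 0.0233). The lowest edgeR value with a library left out was 3.61, in the fit that lacked Db + Ato10 replicate 1 (adjusted p = 0.347).

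Krt20 (gene 66809), best known from intestinal epithelium and the surface cells of the urothelium, measured 0.795, 2.95 and 0.565 CPM in Db replicates 1, 2 and 3 and 74.2, 70.6 and 18.0 CPM in Db + Ato10 replicates 1, 2 and 3. The counts behind these levels were 10, 34 and 7 in the Db libraries and 1127, 1046 and 228 in the Db + Ato10 libraries, so the gene passed the count filter only with Db + Ato10 libraries included. Db replicate 2 was the highest Db library, and it still lay below the lowest Db + Ato10 library. The means were 1.44 ± 1.31 CPM and 54.3 ± 31.5 CPM (SD, n = 3 each), and the Db + Ato10 libraries lay 51.7, 49.2 and 12.5 times above the Db mean. Krt20 had the largest log2 fold change of the 7 members, 5.25 (SE 0.83), with an adjusted p of 0.239 by edgeR and of 1.15e-09 by DESeq2. With a filter of 1 count in total over all libraries, edgeR gave 5.22 (adjusted p = 0.245). The edgeR value was 4.97 with Db replicate 1 left out (adjusted p = 0.588). It was 5.67 with Db + Ato10 replicate 3 left out, and Krt20 was then called (adjusted p = 0.0233). The fit that lacked Db replicate 2, the highest Db library, gave 6.30 (adjusted p = 0.403).

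Krt23 (gene 94179), a type I keratin of low level in these kidneys, measured 1.83, 1.04 and 0.727 CPM in Db replicates 1, 2 and 3 and 2.70, 2.09 and 0.866 CPM in Db + Ato10 replicates 1, 2 and 3. The groups overlapped, and Db + Ato10 replicate 3 lay among the Db libraries. These levels rested on 23, 12 and 9 counts in the Db libraries and on 41, 31 and 11 counts in the Db + Ato10 libraries. Like Krt20, the gene passed the count filter only with Db + Ato10 libraries included. The log2 fold change of 0.66 (SE 0.54) did not pass edgeR (adjusted p = 0.525) or DESeq2 (adjusted p = 0.595). Leaving out Db replicate 1 gave 1.11, and leaving out Db + Ato10 replicate 3 gave 1.00. The lowest values were 0.32, with Db + Ato10 replicate 1 left out, and 0.40, with Db replicate 3 left out.

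The calls depended on single libraries. With edgeR, 0 keratins and 0 genes were called without Db replicate 1, and the smallest adjusted p of a keratin was then 0.588. Without Db + Ato10 replicate 3, edgeR called 4 of the 7 keratins and 1106 of 13517 tested genes, of which 805 (5.96%) were higher. The keratins were Krt8, Krt18, Krt19 and Krt20. With DESeq2, Krt19 and Krt20 alone of the keratins were called without Db replicate 1, beside 195 genes in all. Without Db replicate 3, DESeq2 called Krt8, Krt19 and Krt20 beside 223 genes in all. The same 3 keratins were called by DESeq2 when Db + Ato10 replicate 2 was left out, beside 372 genes in all. It called all 4 without Db replicate 2, Db + Ato10 replicate 1 or Db + Ato10 replicate 3, beside 623, 313 and 2614 genes in all. Of all tested genes, DESeq2 called 1.18% higher and 0.258% lower with Db replicate 1 left out, and 11.8% higher and 7.50% lower with Db + Ato10 replicate 3 left out. Higher without overlap were 4 keratins and 16.2% of genes in the first of these fits (2206 of 13588), and 6 keratins and 25.4% of genes in the other (3434 of 13517). Ranked by log2 fold change among 13679 tested genes, Krt20 stood at place 62, Krt19 at 114, Krt18 at 984 and Krt8 at 1601. Krt23 stood at place 2035, Krt7 at 2799 and Krt80 at 9868. In every fit above, Krt20 (10, 34 and 7 Db counts) reached the count filter only with Db + Ato10 libraries included. Its calls and its place were therefore not independent of the filter, and neither was the place of Krt23.

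Levels of different keratins were compared as FPKM, a level scaled to both transcript length and library size. In the Db group the order of mean FPKM was Krt7 (111 ± 13.7), Krt8 (78.3 ± 10.8), Krt18 (21.2 ± 2.00), Krt80 (5.76 ± 0.634), Krt19 (2.17 ± 0.749), Krt23 (0.850 ± 0.383) and Krt20 (0.800 ± 0.747; SD, n = 3 each). Krt23 and Krt20 did not differ beyond their spread. In the Db + Ato10 group the order was Krt7 (153 ± 58.4), Krt8 (144 ± 28.0), Krt18 (55.9 ± 25.2), Krt19 (48.9 ± 38.9), Krt20 (30.8 ± 18.4), Krt80 (4.79 ± 1.54) and Krt23 (1.39 ± 0.716). There the neighbours Krt7 and Krt8, Krt18 and Krt19, and Krt19 and Krt20 lay within each other's spread. Within each Db + Ato10 library, Krt18 and Krt19 both exceeded Krt20. Krt20 thus had the lowest Db mean of the 7, although it exceeded Krt23 in Db replicate 2 (1.66 against 0.76 FPKM). In the Db + Ato10 order it stood above Krt80 and Krt23.

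The share of type I keratins in the summed level differed between the groups. The 3 type II keratins summed to 184, 213 and 189 FPKM in Db replicates 1, 2 and 3 and to 377, 304 and 225 FPKM in Db + Ato10 replicates 1, 2 and 3. The 4 type I keratins summed to 22.8, 28.9 and 23.6 FPKM in the Db libraries and to 216, 141 and 53.5 FPKM in the Db + Ato10 libraries. Both sums were higher in each Db + Ato10 library than in any Db library. The ratio of type II to type I FPKM was 8.07, 7.37 and 7.99 in Db replicates 1, 2 and 3 and 1.75, 2.15 and 4.20 in Db + Ato10 replicates 1, 2 and 3. This ratio was lower in each Db + Ato10 library than in any Db library, with Db + Ato10 replicate 3 nearest to the Db libraries. It describes RNA and not protein, and no test was made of it, since it was built from the members themselves.

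**Figure D2:**
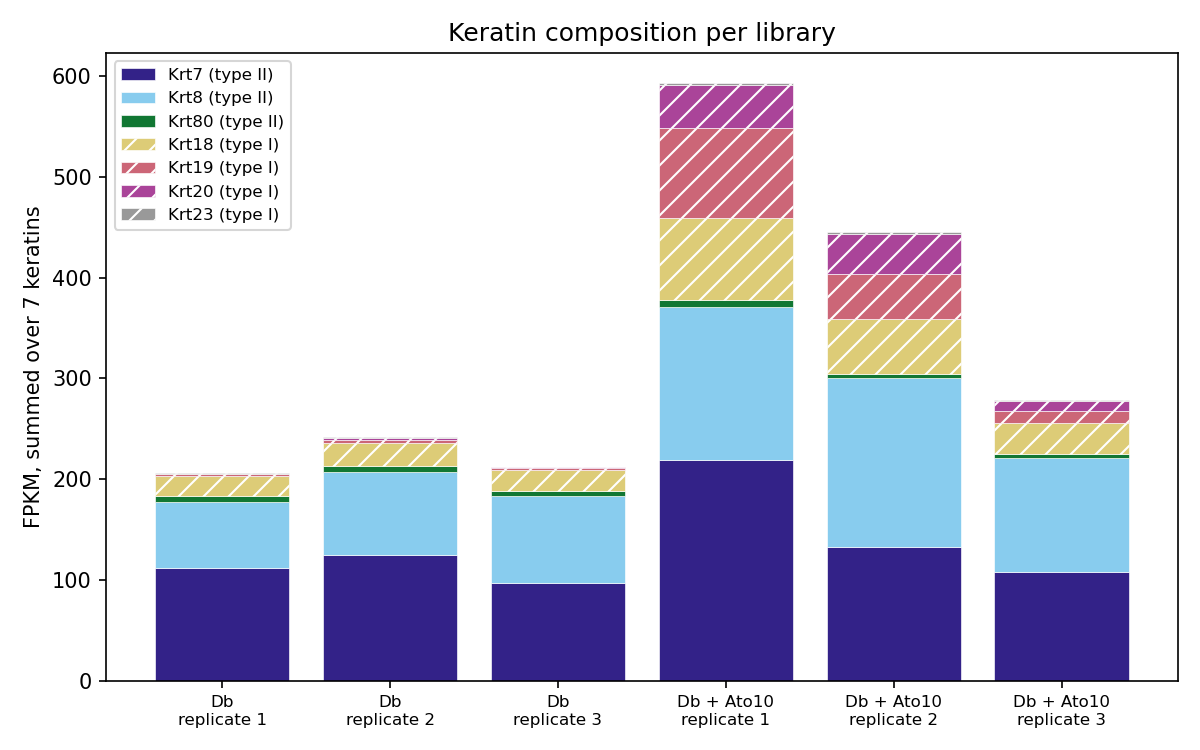
FPKM of the 7 simple epithelial keratins stacked in each of the 6 kidney libraries, with type I keratins hatched. The stacks reach 206, 241 and 212 FPKM in Db replicates 1, 2 and 3 and 593, 445 and 278 FPKM in Db + Ato10 replicates 1, 2 and 3, and the hatched part is larger in the Db + Ato10 libraries.

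Within the type I keratins, Krt18 held 85.9%, 81.3% and 87.8% of the FPKM in Db replicates 1, 2 and 3 and 37.8%, 38.7% and 58.6% in Db + Ato10 replicates 1, 2 and 3. Krt19 held 6.59%, 10.3% and 8.64% in the Db libraries and 41.4%, 32.1% and 22.1% in the Db + Ato10 libraries. Krt20 held 1.89%, 5.75% and 1.31% in the Db libraries and 19.9%, 28.2% and 18.1% in the Db + Ato10 libraries. Krt18 was thus the main type I keratin of the Db libraries, and in Db + Ato10 replicate 1 the share of Krt19 exceeded that of Krt18. For the pair Krt8 and Krt18, the ratio of FPKM was 3.38, 3.51 and 4.17 in Db replicates 1, 2 and 3 and 1.86, 3.06 and 3.60 in Db + Ato10 replicates 1, 2 and 3. The groups overlapped, and the mean log2 ratio differed by -0.42 between the groups (two-sided exact permutation test over 20 arrangements, p = 0.3, with 0.1 as the smallest p-value the design allows). Leaving out a library gave -0.48 (Db replicate 1), -0.62 (Db + Ato10 replicate 3) and -0.15 (Db + Ato10 replicate 1). Krt7 exceeded Krt8 in every Db library, with FPKM ratios of 1.69, 1.51 and 1.12. In Db + Ato10 replicates 1, 2 and 3 this ratio was 1.44, 0.795 and 0.951, so the groups overlapped here as well.

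Across transcripts, the 7 genes had 9 transcripts, all of them tested. With edgeR 0 of the 9 were called, beside 0% of all tested transcripts (0 of 30175). At an unadjusted p-value under 0.05 edgeR counted 2471 transcripts. DESeq2 called 5 of the 9 higher, beside 1.90% of all tested transcripts (573 of 30175). These were the single transcripts of Krt8, Krt18 and Krt20 and both transcripts of Krt19. The less abundant Krt19 transcript and the Krt20 transcript (10, 34 and 7 Db counts) reached 10 counts in 3 libraries only with Db + Ato10 libraries. The calls of these transcripts were therefore not independent of the filter. With Db replicate 1 left out DESeq2 called 3 of the 9, beside 1.45% of tested transcripts called higher (412 of 28500). With Db + Ato10 replicate 3 left out it called 4, beside 4.53% (1287 of 28405). The less abundant Krt19 transcript held 0%, 16.5% and 0.161% of the gene's counts in Db replicates 1, 2 and 3 and 22.2%, 21.5% and 19.6% in Db + Ato10 replicates 1, 2 and 3. The Db shares rested on 0, 6.26 and 0.05 estimated counts. The shares did not overlap between the groups, and their difference was not tested. For Krt80, the more abundant transcript held 89.0%, 90.2% and 90.5% of the counts in the Db libraries and 98.4%, 92.7% and 93.1% in the Db + Ato10 libraries. Counts of single transcripts are estimates where transcripts of a gene share reads.

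The other keratins of the table were mostly at the limit of detection. Of 24 other type I keratins listed, 11 had a row and 4 were tested. Krt15, which is encoded next to Krt19, measured 0.556, 0 and 0.0808 CPM in Db replicates 1, 2 and 3 and 47.8, 31.0 and 7.40 CPM in Db + Ato10 replicates 1, 2 and 3. Krt14, a basal cell keratin, measured 0.0795, 0 and 0 CPM in the Db libraries and 31.2, 13.6 and 5.59 CPM in the Db + Ato10 libraries. Krt10 and Krt222 overlapped between the groups, with log2 fold changes of -0.46 and -0.59 that did not pass edgeR (adjusted p = 0.523 and 0.463) or DESeq2. Of 21 other type II keratins listed, 11 had a row and 1 was tested, Krt5, the partner of Krt14. Krt5 measured 0.397, 0.0867 and 0.404 CPM in Db replicates 1, 2 and 3 and 74.2, 39.8 and 11.7 CPM in Db + Ato10 replicates 1, 2 and 3. The Db counts were 5, 1 and 5 for Krt5, 1, 0 and 0 for Krt14 and 7, 0 and 1 for Krt15, and the Db + Ato10 counts were 1127, 589 and 149, 473, 202 and 71, and 725, 459 and 94. These 3 genes passed the count filter only through the Db + Ato10 group, so a difference was built into their selection, and no fold change or p-value is given for them. Without Db + Ato10 replicate 3 they did not pass the filter.

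Among 14 other intermediate filament genes, 10 were tested, 8 were higher and 2 lower, with a median log2 fold change of 0.66. DESeq2 called Vim and Lmna higher, beside 5.17% of all tested genes. Vim, which encodes the mesenchymal filament protein vimentin, measured 36.8, 51.0 and 29.5 CPM in Db replicates 1, 2 and 3 and 564, 123 and 49.3 CPM in Db + Ato10 replicates 1, 2 and 3. Its groups overlapped through Db + Ato10 replicate 3. Lmna, a nuclear lamin gene, had means of 63.0 and 107 CPM without overlap, and Nes overlapped between the groups. Without Db replicate 1 DESeq2 called neither Vim nor Lmna, and without Db + Ato10 replicate 3 it called Vim, Lmna and Lmnb1. In these fits 1.18% and 11.8% of all tested genes were called higher. Of 18 genes for desmosomes and keratin linkers, 15 were tested, 11 were higher and 4 lower, the median was 0.10, and neither tool called any, while 5 had an unadjusted edgeR p-value under 0.05, beside 16.9% of all tested genes. Dst was lower without overlap, with means of 304 and 202 CPM, and its DESeq2 adjusted p was 0.0463 at a fold change just under 1.5. Pkp4 was also lower without overlap, with means of 504 and 328 CPM. Plec, which encodes the linker plectin, and the desmosomal gene Pkp3 were higher without overlap, with means of 102 and 191 CPM and of 18.3 and 27.2 CPM, and the desmosomal plaque gene Jup overlapped, at 181 and 189 CPM. Without Db replicate 1 neither tool called a gene of this list. Without Db + Ato10 replicate 3 edgeR called Plec and Ppl higher and Dst lower, and DESeq2 called these 3 with Pkp3 higher and Pkp4 lower. In that fit edgeR called 8.18% and DESeq2 19.3% of all tested genes in either direction.

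Of 12 genes for proteins that bind, chaperone, crosslink or cleave keratins, all 12 were tested, 7 were higher and 5 lower, and the median log2 fold change was 0.13. This balance depended on 1 library, since 11 were higher and 1 lower with Db replicate 1 left out (median 0.41). DESeq2 called Sfn alone, which encodes a 14-3-3 protein of epithelial cells, beside 5.17% of all tested genes called higher. Sfn measured 7.47, 11.4 and 6.79 CPM in Db replicates 1, 2 and 3 and 82.6, 27.9 and 14.7 CPM in Db + Ato10 replicates 1, 2 and 3, without overlap. DESeq2 did not call Sfn without Db replicate 1, where it called Hspb1 instead, and it called Hspb1, Tgm2 and Sfn without Db + Ato10 replicate 3. It called 1.18% and 11.8% of all tested genes higher in these fits. Hspa8 and Sqstm1, the most abundant of these genes, overlapped between the groups, and Ywhaz did not, with means of 454 and 604 CPM. Of 23 epithelial transcription factor genes, 22 were tested, 18 were higher and 4 lower, and the median was 0.89. DESeq2 called 6 of them higher and 1 lower, beside 5.17% and 1.29% of all tested genes, and 9 were higher and 1 lower without overlap, beside 12.0% and 11.3% of all tested genes. Without Db replicate 1 it called Jun alone, beside 1.18% of all tested genes called higher. Without Db + Ato10 replicate 3 it called 10 higher and 1 lower, beside 11.8% and 7.50% of all genes tested in that fit. Junb, a component of AP-1, measured 10.2, 18.1 and 12.9 CPM in Db replicates 1, 2 and 3 and 288, 53.6 and 38.3 CPM in Db + Ato10 replicates 1, 2 and 3. Its groups did not overlap, and Db + Ato10 replicate 1 stood far above the others. Elf3, an ETS family factor of simple epithelia, had means of 25.6 and 69.6 CPM, Klf6 of 66.4 and 225 CPM and Sox9 of 3.26 and 25.8 CPM, each without overlap. Jund, another AP-1 component, did not overlap either, and DESeq2 did not call it.

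Of 14 junction and surface genes of simple epithelia, all 14 were tested, 9 were higher and 5 lower, and the median log2 fold change was 0.12 (8 higher and 6 lower, median 0.070, with Db replicate 1 left out). DESeq2 called 3 of them higher, with Cldn4 and Muc1 among these, and Cdh16 and Cldn8 lower, beside 5.17% of all tested genes called higher and 1.29% called lower (177 of 13679). Cldn4, a tight junction gene, measured 18.2, 29.3 and 21.7 CPM in Db replicates 1, 2 and 3 and 126, 92.0 and 46.2 CPM in Db + Ato10 replicates 1, 2 and 3. Cldn8, a claudin of the distal nephron, measured 94.7, 103 and 82.2 CPM in the Db libraries and 58.0, 43.5 and 47.9 CPM in the Db + Ato10 libraries. The 2 claudins thus lay on opposite sides, each without overlap. Of the 4 named here, DESeq2 called Cldn4 and Cldn8 without Db replicate 1 and all 4 without Db + Ato10 replicate 3. These fits called 1.44% and 19.3% of all tested genes in either direction. The general epithelial genes Cdh1 and Spint2 overlapped between the groups, with log2 fold changes of -0.12 and 0.36.

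Markers of other cell types were read beside the keratins, and their part in the keratin differences was not tested. No listed marker with a row was at 0 in all 6 libraries. Fitted levels of the nephron segment markers lay below those of the Db group, and DESeq2 called some of these markers. With all libraries it called 1.29% of all tested genes lower. For principal cells of the collecting duct, 9 of 9 fitted levels were lower, with a median log2 fold change of -0.68, and DESeq2 called Hsd11b2 and Scnn1g lower. Their sum was 963, 777 and 1244 CPM in Db replicates 1, 2 and 3 and 757, 481 and 777 CPM in Db + Ato10 replicates 1, 2 and 3, with Aqp2 the most abundant in both groups. For intercalated cells, 5 of 5 were lower (4 of 5 with either of the 2 libraries left out), with a median of -0.46, and DESeq2 called Slc4a1. Their sum was 324, 240 and 242 CPM in the Db libraries and 201, 143 and 172 CPM in the Db + Ato10 libraries, with Slc4a1 the most abundant in the Db group and Atp6v0d2 in the Db + Ato10 group. Without Db replicate 1 DESeq2 called Hsd11b2 and Slc4a1 in these 2 lists, and without Db + Ato10 replicate 3 it called Aqp3, Avpr2, Scnn1g, Hsd11b2 and Slc4a1. These fits called 0.258% and 7.50% of all tested genes lower.

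For the thick ascending limb, 5 of 5 markers were lower, with a median log2 fold change of -0.98, and DESeq2 called Slc12a1, Kcnj1 and Cldn10, while 4 of 5 were lower with Db + Ato10 replicate 3 left out. Their sum was 6341, 7057 and 6806 CPM in Db replicates 1, 2 and 3 and 4324, 2097 and 5146 CPM in Db + Ato10 replicates 1, 2 and 3, with Umod the most abundant. For the distal convoluted tubule, 4 of 4 were lower, with a median of -1.01, and DESeq2 called Slc12a3, the most abundant, and Wnk4. Their sum was 1846, 2563 and 1610 CPM in the Db libraries and 945, 623 and 1220 CPM in the Db + Ato10 libraries. Both sums were lower in each Db + Ato10 library than in any Db library. For the proximal tubule, 9 of 9 were lower, with a median of -0.83 (-1.71 with Db + Ato10 replicate 3 left out), and neither tool called any, with 0 at an unadjusted edgeR p-value under 0.05. The sum was 12649, 9115 and 11632 CPM in Db replicates 1, 2 and 3 and 1174, 4934 and 10778 CPM in Db + Ato10 replicates 1, 2 and 3, with Slc34a1 the most abundant. Db + Ato10 replicate 3 lay within the Db range for the proximal tubule, and it was the Db + Ato10 library with the lowest Krt8, Krt18, Krt19 and Krt20. Over the thick ascending limb, distal convoluted tubule and proximal tubule, DESeq2 called 3, 1 and 0 lower without Db replicate 1 and 3, 3 and 6 without Db + Ato10 replicate 3. The share of all tested genes called lower was 0.258% and 7.50% in these fits and 1.29% with all libraries.

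Markers of injured tubules were higher, 7 of 7, with a median log2 fold change of 3.05. DESeq2 called 6 of them, beside 5.17% of all tested genes called higher. Without Db replicate 1 it called 4 of them, beside 1.18%, and without Db + Ato10 replicate 3 it called 7 of them, beside 11.8%. Their sum was 3731, 4654 and 2506 CPM in Db replicates 1, 2 and 3 and 16139, 32562 and 11217 CPM in Db + Ato10 replicates 1, 2 and 3, with Spp1, which encodes osteopontin, the most abundant. Havcr1, which encodes kidney injury molecule KIM-1, measured 1.35, 13.6 and 0.646 CPM in the Db libraries and 115, 274 and 87.9 CPM in the Db + Ato10 libraries. With 17, 157 and 8 counts in the Db libraries, Havcr1 reached the count filter only with Db + Ato10 libraries included. Its DESeq2 call was therefore not independent of the filter. Db + Ato10 replicate 2 had the highest injury sum, most of it from Spp1 (28855 CPM). Lcn2 (5088 CPM) and Cd44 (236 CPM) were highest in Db + Ato10 replicate 1, as were Krt18, Krt19 and Krt20. Havcr1, Vcam1, Spp1, Clu and Cdh6 were highest in Db + Ato10 replicate 2, as was Krt8. Of 3 parietal epithelial cell markers, 3 were higher, with a median of 1.68, and DESeq2 called Akap12, with none called without Db replicate 1 and all 3 called without Db + Ato10 replicate 3. Cldn1 was the most abundant in the Db group (29.2 CPM) and Akap12 in the Db + Ato10 group (99.9 CPM). Their sum was 56.3, 53.1 and 60.7 CPM in Db replicates 1, 2 and 3 and 188, 270 and 58.1 CPM in Db + Ato10 replicates 1, 2 and 3. The sum overlapped between the groups through Db + Ato10 replicate 3.

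Of 8 urothelial markers, 4 were tested, of which Krt5 passed the count filter only through the Db + Ato10 group. Of the other 3, Psca and Trp63 were higher and Upk1a lower, each with overlap, and neither tool called any. Their sum was 8.42, 9.80 and 10.2 CPM in Db replicates 1, 2 and 3 and 104, 58.5 and 17.7 CPM in Db + Ato10 replicates 1, 2 and 3, with Psca the most abundant in the Db group and Krt5 in the Db + Ato10 group. Without Krt5 the sum was 8.03, 9.71 and 9.77 CPM in the Db libraries and 30.2, 18.8 and 5.99 CPM in the Db + Ato10 libraries, so it overlapped. With Db + Ato10 replicate 3 left out DESeq2 called Psca and Trp63 higher, beside 11.8% of all genes tested in that fit. Trp63 had 10, 12 and 7 counts in the Db libraries and also needed Db + Ato10 libraries to pass the filter. The uroplakins, which define the urothelial surface, were low in all libraries. Upk1a measured 2.70, 1.99 and 1.78 CPM in the Db libraries and 2.17, 0.878 and 1.02 CPM in the Db + Ato10 libraries. Upk3a measured 0.397, 0.0867 and 0.646 CPM in the Db libraries and 6.13, 2.03 and 0.236 CPM in the Db + Ato10 libraries. Upk1b and Upk2 measured at most 2.96 and 1.25 CPM in any library. Of 3 mesothelial markers, 2 were tested, of which Msln (4, 2 and 1 counts in the Db libraries) also passed only through the Db + Ato10 group. The other, Upk3b, overlapped between the groups and was not called. Their sum was 1.91, 1.82 and 3.80 CPM in the Db libraries and 11.8, 8.58 and 2.28 CPM in the Db + Ato10 libraries, with Upk3b the most abundant in the Db group and Msln in the Db + Ato10 group. This sum overlapped between the groups.

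Among cells outside the epithelium, 4 of 4 macrophage markers were higher, with a median log2 fold change of 3.17. DESeq2 called 3 of them, beside 5.17% of all tested genes called higher. Their sum was 78.1, 105 and 90.1 CPM in Db replicates 1, 2 and 3 and 1009, 335 and 119 CPM in Db + Ato10 replicates 1, 2 and 3, with Csf1r the most abundant in the Db group and C1qa in the Db + Ato10 group. For fibroblasts, 4 of 4 were higher, with a median of 3.16, and DESeq2 called Col1a1 and Col3a1. Their sum was 49.3, 95.0 and 67.9 CPM in the Db libraries and 1063, 416 and 147 CPM in the Db + Ato10 libraries, with Pdgfrb the most abundant in the Db group (29.0 CPM) and Col1a1 in the Db + Ato10 group (191 CPM). For macrophages and fibroblasts, DESeq2 called 1 and 2 without Db replicate 1 and 4 and 4 without Db + Ato10 replicate 3. Higher calls made up 1.18% and 11.8% of all tested genes in these fits. Neither sum overlapped between the groups, and in both Db + Ato10 replicate 1 was the highest library, as it was for Krt18, Krt19 and Krt20. Krt8 was highest in Db + Ato10 replicate 2. Of 5 lymphocyte markers, 1 was tested, Cd3g, which had 3, 12 and 5 counts in the Db libraries and passed the count filter only with Db + Ato10 libraries included. The lymphocyte sum was 0.715, 2.43 and 1.13 CPM in Db replicates 1, 2 and 3 and 19.6, 11.3 and 2.13 CPM in Db + Ato10 replicates 1, 2 and 3, and it overlapped. Of 5 podocyte markers, 2 were higher and 3 lower (median -0.15), and of 4 endothelial markers, 2 were higher and 2 lower (median 0.027), with 0 called by either tool. The podocyte list turned to 3 higher and 2 lower with Db replicate 1 left out (median 0.24). The endothelial marker Kdr was lower without overlap with all libraries (means of 53.5 and 25.9 CPM), beside 11.3% of all tested genes. Without Db + Ato10 replicate 3 both tools called Kdr lower. In that fit DESeq2 called 7.50% of all tested genes lower, and edgeR called 8.18% in either direction. Podocyte sums ran from 367 to 570 CPM in the Db libraries and from 197 to 573 CPM in the Db + Ato10 libraries, with Podxl the most abundant in both groups. Endothelial sums ran from 206 to 246 CPM and from 111 to 298 CPM, with Pecam1 the most abundant in the Db group and Emcn in the Db + Ato10 group. Both overlapped between the groups.

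**Figure D3:**
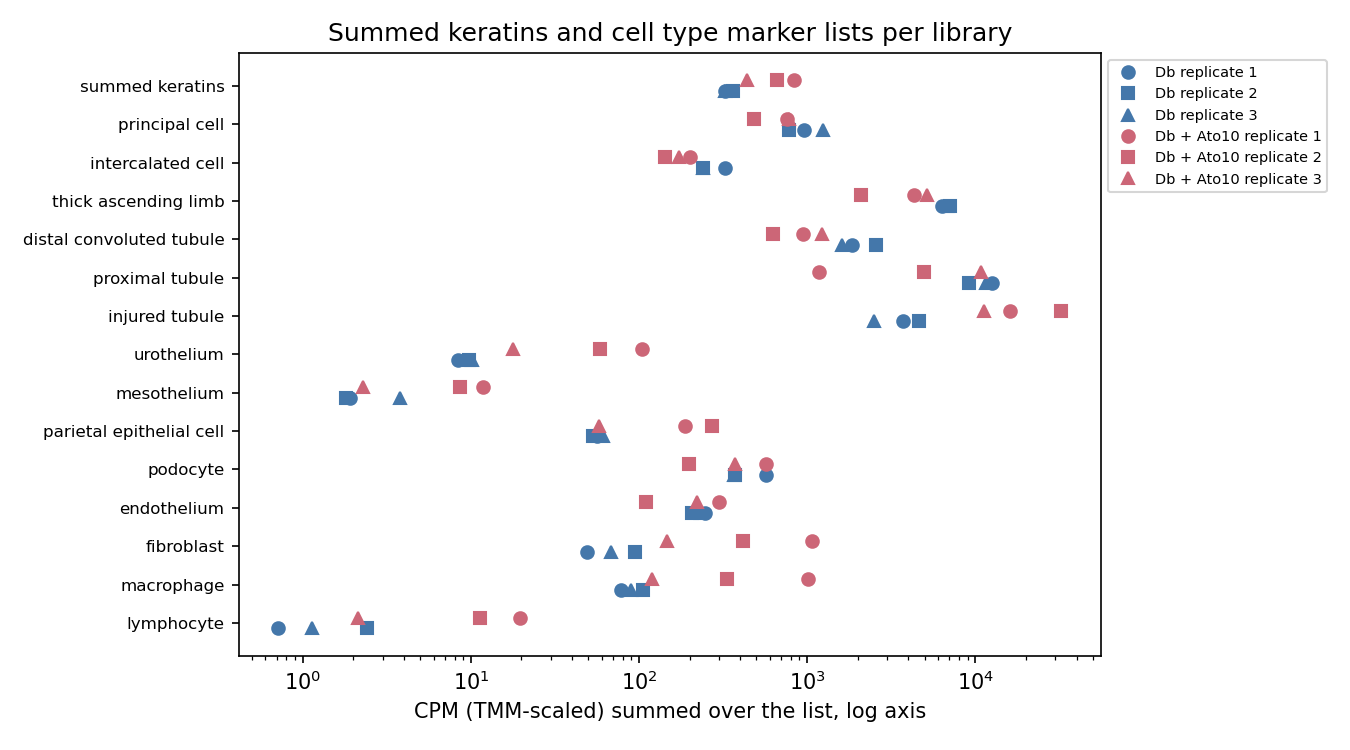
Summed CPM (TMM-scaled, log axis) of the 7 simple epithelial keratins and of each list of cell type markers in 3 Db and 3 Db + Ato10 kidney libraries. Each point is 1 library; the keratin sum was 326, 362 and 325 CPM in Db replicates 1, 2 and 3 and 830, 660 and 436 CPM in Db + Ato10 replicates 1, 2 and 3, while the proximal tubule sum was lowest in Db + Ato10 replicate 1, at 1174 CPM.

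The members were compared with each other and with 13382 genes of at least 1 CPM on average by Pearson's r of log2 CPM over the 6 libraries, as a description. The libraries fall into 2 groups that differ in many genes, so high values of r were common. Between members, r was 0.990 for Krt18 and Krt19, 0.971 for Krt19 and Krt20, 0.956 for Krt8 and Krt19, and 0.914 for Krt8 and Krt18. Krt7 and Krt18 had an r of 0.855, Krt7 and Krt8 of 0.577, and Krt80 and Krt8 of -0.53. The genes most like Krt19 were Ptma, Homer3 and Mdga1 (r from 0.998 to 1.00), among 400 genes with an r over 0.95. Those most like Krt20 were Chaf1a, Fen1 and Trpv6 (r from 0.992 to 0.994), among 174 such genes. Those most like Krt18 were Crlf2, Cdkn2aipnl and Tex10, among 682, and those most like Krt8 were Cyb561, Rbmx2 and Parp3, among 145. For Krt7 they were Bcl2l11, Loxl2 and Rasgrp4, among 337. For Krt23 they were Flnc, Zfp296 and Zdhhc14, among 47, and for Krt80 Tspan2, Sirt2 and Wdr37, among 23.

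In the RefSeq gene order of assembly GRCm38.p6, the type II keratins lie on chromosome 15 and the type I keratins on chromosome 11, except Krt18, which lies on chromosome 15 directly beside Krt8. Krt80 and Krt7 are neighbours, Krt20 and Krt23 are neighbours, and Krt19 lies between Krt15 and Krt9. Neighbouring genes did not share 1 pattern. Krt8 and Krt18 were both higher without overlap. Krt20 was higher without overlap beside Krt23, whose groups overlapped, and the difference between these 2 genes was not tested.

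Promoter sequences from RefSeq (GRCm38.p6) were matched by symbol for 5 of the 7 members, Krt7, Krt8, Krt18, Krt20 and Krt23, and the other members are Krt19 and Krt80. The 250 bases before the start are shown for Krt8, Krt18 and Krt20, because these 3 genes were higher together in the Db + Ato10 libraries. They lie at chr15:102004343-102004592 on the minus strand for Krt8, chr15:102027966-102028215 on the plus strand for Krt18 and chr11:99438154-99438403 on the minus strand for Krt20. Each is written 5′ to 3′ on the strand of its gene, upstream of the transcribed part, and capitals mark a match to a motif named below.
Krt8: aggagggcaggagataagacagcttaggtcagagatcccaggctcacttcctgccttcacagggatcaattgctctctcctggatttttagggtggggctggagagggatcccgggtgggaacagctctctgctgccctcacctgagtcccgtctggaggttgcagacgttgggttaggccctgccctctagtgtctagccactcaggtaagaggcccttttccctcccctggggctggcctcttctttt
Krt18: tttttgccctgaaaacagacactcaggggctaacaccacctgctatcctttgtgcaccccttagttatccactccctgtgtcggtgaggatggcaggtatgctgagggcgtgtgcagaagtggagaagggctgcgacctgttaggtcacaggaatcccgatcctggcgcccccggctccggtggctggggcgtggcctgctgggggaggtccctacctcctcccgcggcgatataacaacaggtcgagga
Krt20: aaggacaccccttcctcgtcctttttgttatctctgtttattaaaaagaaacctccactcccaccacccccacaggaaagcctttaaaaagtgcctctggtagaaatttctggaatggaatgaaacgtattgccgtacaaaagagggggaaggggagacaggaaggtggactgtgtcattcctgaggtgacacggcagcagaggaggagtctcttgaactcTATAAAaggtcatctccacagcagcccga
The motifs searched on both strands were the TATA box (TATAAA), AP-1 (TGANTCA), STAT (TTCNNNGAA), the GC box (GGGCGG) and the ETS core (CCGGAA), and no matches overlapped in the windows shown. Krt20 held a TATA box that begins 29 bases before the start, a motif found in 12.4% of 32851 promoter windows of this length. Krt7 held 4 GC boxes, a motif found in 32.7% of the windows. AP-1, STAT and ETS core letters were in 6.75%, 7.02% and 12.0% of the windows and in 0 of the 5 keratin windows. A match is a description of letters in the window, and the lack of one says only that these letters are not there.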

How the data were processed

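Kidney RNA was sequenced on a BGISEQ platform in 3 Db and 3 Db + Ato10 libraries, grouped by the treatment label. The submitters' processing notes name HISAT, Bowtie2 2.2.5 and mm9, without their roles. The authors deposited expected counts (estimated reads, not normalized) per gene and transcript, of which 91.3% of gene values and all 42 keratin values were whole to within 1e-09. FPKM per gene (scaled for length and depth) and TPM per gene (scaled for length, with a fixed total per library) were deposited as well. How reads shared between related keratin genes, or with overlapping genes, were assigned is not given in the sources used here, so the split between them is uncertain. Expected counts were rounded and all genes were fitted with edgeR 4.0.16 in R 4.3.3 (TMM, quasi-likelihood F test, Benjamini-Hochberg adjustment). The SE of a log2 fold change was its absolute value over the root of F. DESeq2 1.42.0 and limma 3.58.1 were alternatives, as were other normalizations, filters, units, the replicate number as a block and each library left out. Both tools were tested on counts simulated with the spread per gene that edgeR estimated, equal in both groups. There DESeq2 made more false calls than edgeR, which need not hold for libraries of unequal spread. Log2 CPM used a prior count of 2. The members, the gene lists and the rule for named genes were chosen with earlier results of these data known. The rule took all members, and from each list the 3 most abundant genes and up to 4 called by DESeq2; other listed genes that are named were chosen after their values were seen. Some listed genes were counted but are not reported here. No library pair was identical (0 pairs). The assembly behind the counts is older than that of the RefSeq tables, which were used for gene order and promoter sequences. Plots were made in Python 3.11.15 with matplotlib 3.10.9.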

Additional observations from a re-analysis of the deposited data

How the results depend on the processing

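With all 6 libraries, edgeR called 0 keratins and 0 genes with TMM or upper-quartile scaling, with a minimum of 1 count in total or of 10 counts in each library, and with no fold threshold, and limma-voom and limma on log2(FPKM + 1) or log2(TPM + 1) also called 0. On log2(FPKM + 0.1), limma called 1 gene and 0 keratins; the cause was not tested. DESeq2 called 884 genes, 4 keratins and 5 keratin transcripts. Krt20 was among these keratins and passed the count filter only with Db + Ato10 libraries included. With a library left out, over both tools, the genes called ran from 0 to 2614, the keratins called from 0 to 4, the keratins without overlap from 4 to 6 (the 6 beside 25.4% of genes higher without overlap) and the keratin transcripts called by edgeR from 0 to 0. The log2 difference in the ratio of Krt8 to Krt18 ran from -0.62 to -0.15. No keratin changed the sign of its log2 fold change under any alternative run. Krt8 ran from 0.76 to 0.99, Krt18 from 1.02 to 1.65, Krt19 from 3.60 to 4.81 and Krt20 from 3.97 to 6.32, while Krt7 ran from 0.12 to 0.63, Krt23 from 0.32 to 1.11 and Krt80 from -0.51 to -0.031. Krt20 and Krt23 were not tested under a minimum of 10 counts in each library, since some libraries held fewer.

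The replicate block, with the replicate number of the labels as a block in edgeR, called 0 genes and 0 keratins. Deviations from the group means correlated at -0.15, 0.061 and 0.21 between libraries of the same number. These values cannot tell whether such libraries shared anything beyond the number. Depth limits the Db levels of Krt19, Krt20 and Krt23, which rested on 7 to 38 counts a library, and the exact permutation test of 3 against 3 libraries has 0.1 as its smallest p-value.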
